A study of Mus musculus with 14 samples.

Results

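The genes described here are the proteasome subunits and their assembly factors on a mouse oligonucleotide array. They were taken as every probe set whose platform symbol begins with Psma, Psmb, Psmc, Psmd, Psme or Psmg, apart from a pair of beta subunit symbols that the rule leaves out. This gave 58 of the 12488 probe sets, which stand for 44 of the 8252 genes named on the array, and 2 of them are assigned to 2 genes each and were given no gene name. A probe set was tested when its signal exceeded the 40th percentile of its array on at least 3 arrays. On this filter 51 probe sets of 42 genes were tested, and 7 were not. The genes Psmd2 and Psmc4, both of the regulatory cap, had only probe sets that were not tested, at 49.4 to 464.3 and 26.2 to 274.0 intensity units across the arrays. The 42 tested genes comprised 7 of the alpha ring and 7 of the beta ring of the core, the inducible beta subunit Psmb10, 5 ATPases and 10 other subunits of the cap, 3 activators, 7 assembly chaperones, and 2 genes whose names carry the prefix because their products bind a subunit.

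The proteasome degrades proteins that carry ubiquitin chains. Its core is a barrel of stacked rings, with structural alpha subunits at the ends that gate the entrance and beta subunits inside that hold the cutting sites. A regulatory cap binds the barrel, and in it ATPases unfold the substrate while the other subunits recognise and remove ubiquitin. Activators of the Psme family open the gate without ubiquitin recognition, and chaperones assemble the parts. When proteasome activity falls short, the transcription factor Nfe2l1 raises many subunit genes together through antioxidant response elements, and interferon replaces the cutting subunits by inducible ones.

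The series compared mammary tumors of MMTV-neu mice, in which a mouse mammary tumor virus promoter expresses the neu oncogene in mammary epithelium, with gland next to tumors and with wild-type gland. The group AMWT holds 3 age-matched wild-type samples, each the pooled RNA of 5 mice: pool 40 at 31 weeks on a background of 87.5% FVB and 12.5% CF-1, and pools 41 and 42 at 41 weeks on 97% FVB and 3% CF-1. AdjacentNeu holds 4 samples (23, 25, 49 and 51) of MMTV-neu gland that surrounded a tumor and is labelled preneoplastic, Tumor holds 5 MMTV-neu tumors (22, 24, 26, 50 and 52), and Tumor_setB holds 2 further tumors (80 and 81) profiled to see whether the first changes recur. No age or strain of the transgenic mice is given in the labels, and the labels do not say whether transgenic samples came from separate mice. The p-values therefore speak only of the spread among the samples at hand.

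Promoters of 33 of the 40 tested genes other than the 2 binding partners were found in the RefSeq table (GRCm38.p6), as 35 stretches of 250 bases before to 50 after a start site. Each was searched on both strands for the core of the antioxidant response element (TGACNNNGC), the CCAAT box (CCAAT) and the core of the interferon-stimulated response element (GAAA, then 2 bases of any kind, then GAAA). No match of one motif overlapped a match of another. The stretches below, of 120 bases each, belong to 4 of the members called in at least 1 comparison below, picked after their values were seen, and show a match upstream of the start. They are written 5′ to 3′ on the strand of the gene, with matches in capitals. Psmb5 lies at chr14:54617996-54618115 on the minus strand and Psmc6 at chr14:45329574-45329693 on the plus strand. Psmd12 lies at chr11:107479278-107479397 on the plus strand and Psmd4 at chr3:95042615-95042734 on the minus strand. All 4 are upstream of the gene's annotated start and overlap no other annotated gene.
Psmb5, bases -120 to -1, antioxidant element core on the gene's strand: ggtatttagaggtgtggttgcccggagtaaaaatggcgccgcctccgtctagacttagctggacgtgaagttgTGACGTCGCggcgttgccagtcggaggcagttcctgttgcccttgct
Psmc6, bases -250 to -131, antioxidant element core on the opposite strand: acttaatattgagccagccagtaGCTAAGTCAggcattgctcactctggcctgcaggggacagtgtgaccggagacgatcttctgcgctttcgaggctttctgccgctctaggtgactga
Psmd12, bases -250 to -131, antioxidant element core on the opposite strand: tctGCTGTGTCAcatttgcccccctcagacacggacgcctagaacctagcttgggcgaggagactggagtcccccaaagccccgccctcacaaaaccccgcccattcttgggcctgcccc
Psmd4, bases -120 to -1, CCAAT box and then interferon-stimulated element core, both on the opposite strand: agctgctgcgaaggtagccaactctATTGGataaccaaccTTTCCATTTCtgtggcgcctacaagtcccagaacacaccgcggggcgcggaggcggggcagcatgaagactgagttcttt

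The antioxidant element core was found in 6 of the 35 member promoters (17.1%), against 12.4% of the 32851 promoters in the table. The 6 belong to Psmb5, Psmb6, Psmc6, Psmd9, Psmd12 and Psme4. The CCAAT box was found in 12 of the 35 (34.3%, against 37.4% of all promoters), 6 of them among the 12 promoters of core genes. The interferon-stimulated element core was found in 5 of the 35 (14.3%, against 3.44%), those of Psmb3, Psmd4, Psmd9, Psme1 and Psmg4. A match is a stretch of letters and not a measured binding site.

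Tissue makeup differed between the groups. White adipocyte markers were lower in Tumor than in AMWT for 10 of 10 genes tested (median log2 difference -6.14), with summed intensities of 4878 to 10773 against 246846 to 341930. AdjacentNeu lay at 129599 to 222471 and Tumor_setB at 6261 to 6561, and 2 of the 10 markers were at the floor on every Tumor array. Luminal epithelial markers were called higher in Tumor for 8 of 11 genes and lower for none (median 1.54), with sums of 88952 to 142889 in Tumor, 81794 to 110589 in Tumor_setB, 54152 to 85160 in AdjacentNeu and 42496 to 48896 in AMWT. Skeletal muscle markers were called lower for 7 of 10 genes and higher for 1, endothelial markers were called lower for 6 of 8, and leukocyte markers were called higher for 1 and lower for 1 of 12. The log2 ratio of 3′ to 5′ signal of the actin control, which rises as RNA is degraded, was 0.90 to 1.51 in AMWT, 0.38 to 1.52 in AdjacentNeu, 0.08 to 0.76 in Tumor and 0.14 to 0.21 in Tumor_setB. The arrays came from 5 lots. Lot 2001815 held Tumor 22, 24 and 26 with AdjacentNeu 23 and 25, lot 2004907 held AdjacentNeu 49 and 51 with AMWT 40, and Tumor 50 and 52 (2004097), AMWT 41 and 42 (2003877) and Tumor_setB (2006609) were the only arrays of their lots. Tumors and wild-type pools were thus never on the same lot, as numbered. The numbers 2004097 and 2004907 differ only in the order of a pair of digits; were they 1 lot, Tumor 50 and 52 would share it with AMWT 40, so both readings were fitted. The part of tissue makeup, RNA quality and lot in the differences below was not tested except where a value is given, and in whole tissue fewer cells of a type and less RNA per cell cannot be told apart.

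The first comparison asked how the proteasome transcripts of tumors (n = 5) differ from those of wild-type gland (n = 3). Core genes Psma1 and Psmb2, cap genes Psmc6 and Psmd12, and the chaperone gene Psmg4 were higher in Tumor, by 0.56 to 0.76 on the log2 scale. The ubiquitin receptor gene Psmd4 was lower, by 0.98 on that scale. With each gene represented by its brightest tested probe set, all 42 differences were under 2-fold, from -0.98 to 0.76. A gene was called when the Benjamini-Hochberg adjusted p of limma's moderated test, taken over all probe sets, was under 0.05. Calls were made for 5 genes higher and 1 lower of 42 (11.9% and 2.38%), while 15.8% of all 6397 genes were called higher and 14.7% lower, so the shares of member genes were below the background in both directions. The median log2 difference was 0.07 over the member genes and 0.13 over all genes. The median size of the difference, regardless of sign, was 0.23 over the member genes and 0.51 over all genes. For 32 of the 42 genes the 95% interval of the difference lay within 2-fold.

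**Figure D1:**
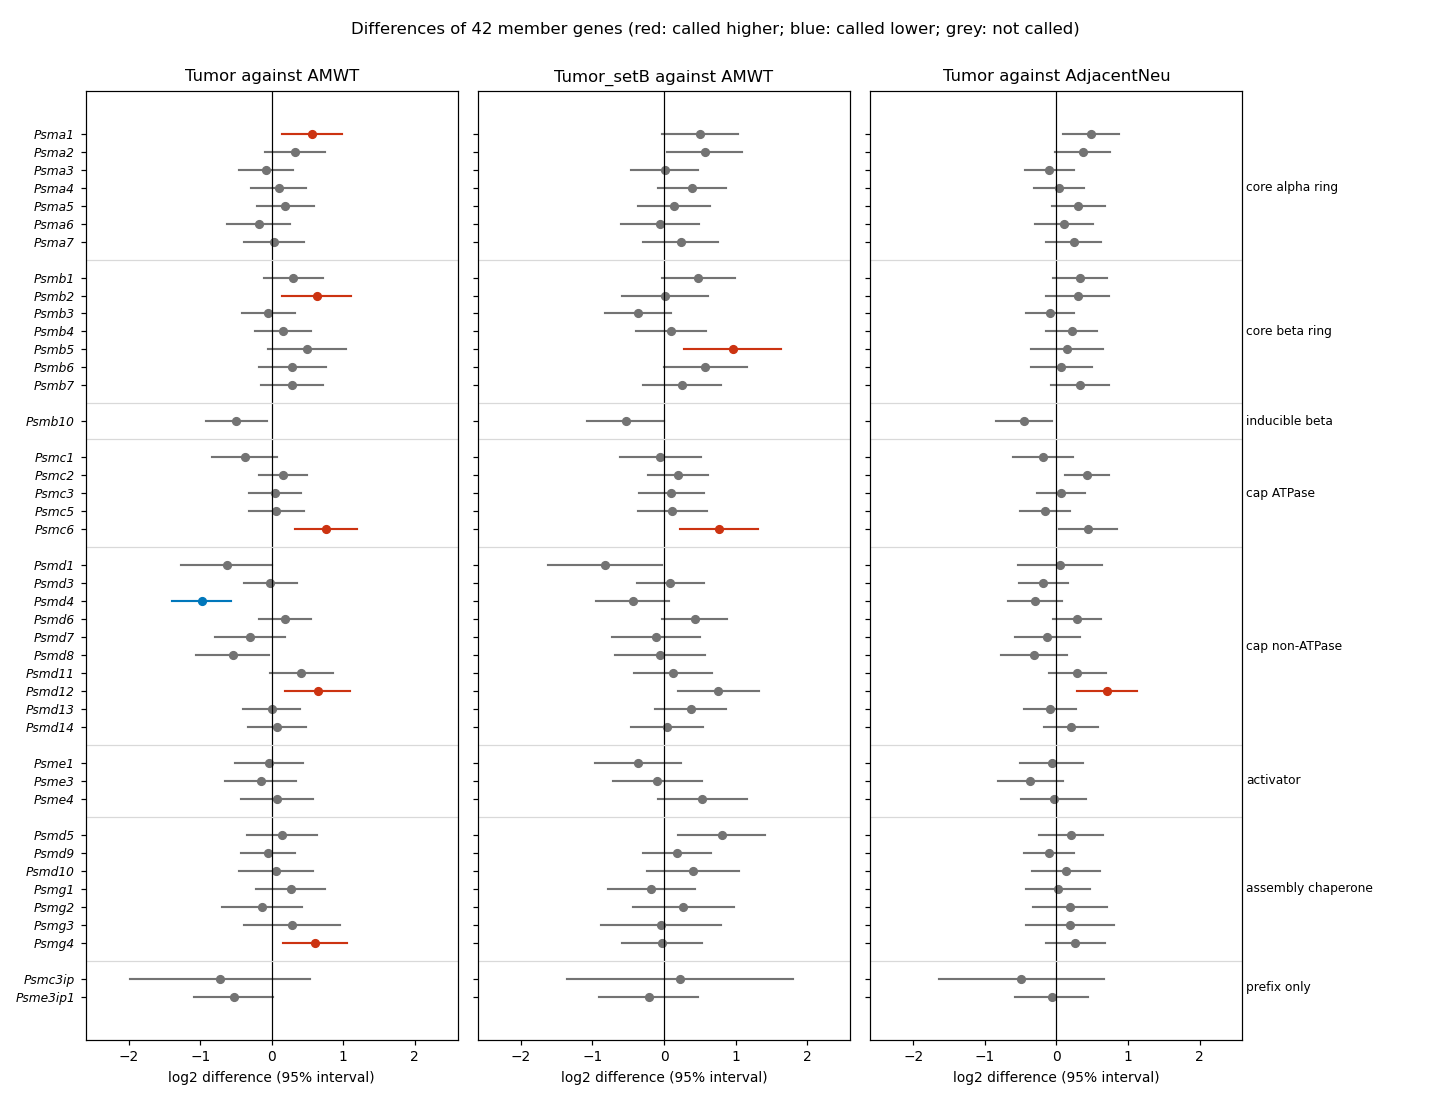
Differences of the 42 tested member genes on the log2 scale with the 95% interval of the limma fit, grouped by role, for Tumor against AMWT, Tumor_setB against AMWT and Tumor against AdjacentNeu. Red points were called higher and blue points lower; 6 genes are coloured in the first panel, 2 in the second and 1 in the third.

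In the alpha ring, 1 of 7 genes was called. Psma1, a structural alpha subunit (probe set 96892_at), read 1639.3, 1664.2 and 1675.5 intensity units in AMWT pools 40, 41 and 42. It read 2654.1, 2672.7, 2680.6, 2031.8 and 2303.8 in Tumor 22, 24, 26, 50 and 52. All 5 tumors lay above all 3 pools, and the pools lay within 1.02-fold of each other. The log2 difference was 0.56 ± 0.20 (SE; adjusted p = 0.0438 by limma). Leaving out any 1 array other than Tumor 50 ended the call, with adjusted p of 0.0542 to 0.111. The other 6 alpha genes ran from -0.18 ± 0.21 for Psma6 to 0.33 ± 0.20 for Psma2 and were not called.

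In the beta ring, 1 of 7 genes was called and 6 of 7 differences were positive, beside 57.6% of all genes. Psmb2, a non-catalytic beta subunit (94219_at), read 3286.3, 4961.2 and 4547.4 in AMWT and 6757.3, 4402.7, 8124.3, 7194.2 and 6670.8 in Tumor. Tumor 24 lay within the range of the wild-type pools and the other 4 tumors above it. On the log2 scale the difference was 0.63 ± 0.23 (adjusted p = 0.0467), and the call held in only 1 of the 8 fits that each left out 1 array, that without Tumor 24. The catalytic subunits, which cut after hydrophobic, acidic and basic residues in the case of Psmb5, Psmb6 and Psmb7, had differences of 0.50 ± 0.26, 0.29 ± 0.22 and 0.28 ± 0.20, none of them called. Psmb5 (101558_s_at) spread most of the beta genes among tumors, from 3187.2 in Tumor 52 to 9211.9 in Tumor 24, against 3698.8 to 4345.2 in AMWT. The median log2 difference over the 14 core genes was 0.24, with 11 of 14 positive, beside the same 57.6% of all genes.

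Psmb10, the interferon-induced subunit that takes the place of Psmb7 in the immunoproteasome (101486_at), read 3813.2, 4967.6 and 4734.3 in AMWT. It read 2683.2, 4435.7, 2668.0, 2565.0 and 3966.3 in Tumor. Tumor 22, 26 and 50 lay below every pool, while Tumor 24 and 52 fell among the pools. The log2 difference of -0.50 ± 0.20 was not called (limma adjusted p = 0.0771); without Tumor 24 it was -0.62 (adjusted p = 0.0233), and without Tumor 52 it was -0.58 (adjusted p = 0.0499). Psmb10 and Psmb7 therefore had differences of opposite sign, neither of which was called.

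Of the 5 cap ATPases, which form the ring that unfolds substrates, 1 was called. Psmc6 (93310_at) read 11344.4, 7142.7 and 5674.9 in AMWT and 12985.9, 12749.2, 14840.3, 13115.4 and 11782.4 in Tumor. The 5 tumors lay within 1.26-fold of each other and all above the pools, which spread more widely. The highest pool, AMWT 40, was near the lowest tumor. The difference was 0.76 ± 0.21 (adjusted p = 0.0113 by limma). It was not called without AMWT 41 (adjusted p = 0.0546) or AMWT 42 (adjusted p = 0.0941), and was called without each of the other 6 arrays. With array lot as a fixed block the difference was 0.26 (adjusted p = 0.801), and with lots 2004097 and 2004907 taken as 1 lot it was 0.17 (adjusted p = 0.788). In both block fits AMWT 40 is the only pool that bears on the difference, since AMWT 41 and 42 had a lot of their own. The other ATPases of the same ring ran from -0.38 ± 0.22 for Psmc1 to 0.16 ± 0.16 for Psmc2.

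The other cap subunits included both the largest fall and a rise. Psmd4, which binds ubiquitin chains (94302_at), read 6300.1, 7356.2 and 7046.1 in AMWT. It read 2732.4, 3447.3, 4007.6, 4450.2 and 3099.2 in Tumor. Every tumor was below every pool. Its log2 difference was -0.98 ± 0.19, with a 95% interval of -1.39 to -0.57 (adjusted p = 0.00121 by limma). The call held in all 8 fits without 1 array. With array lot as a fixed block, it was -0.54 (adjusted p = 0.574), and with lots 2004097 and 2004907 taken as 1 lot it was -0.70 (adjusted p = 0.163). These block values too rest on AMWT 40 as the only pool. Psmd12, a subunit of the lid (93971_f_at), read 2353.0, 2158.4 and 1941.2 in AMWT and 3333.5, 2820.0, 3466.6, 3372.5 and 3837.3 in Tumor. The tumors again lay all on one side, here above the pools. The log2 difference was 0.64 ± 0.21 (adjusted p = 0.0336), and it was called in 1 of the 8 fits without 1 array, that without Tumor 24. The 15 cap genes had a median of 0.04, with 8 of 15 positive.

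Another pair of cap genes lay lower in every tumor than in every pool but was not called. They were chosen here after their values were seen. Psmd1, the scaffold subunit of the cap base, read 6220.7, 6002.0 and 7716.8 in AMWT and 4773.8, 3261.4, 3063.3, 5405.2 and 5502.9 in Tumor (log2 difference -0.63 ± 0.30, limma adjusted p = 0.126). Psmd8, a lid subunit, read 3339.5, 3367.3 and 4256.8 in AMWT and 2537.7, 2048.4, 2345.9, 3330.9 and 2329.9 in Tumor (-0.55 ± 0.24, adjusted p = 0.0942). With lot as a fixed block both changed sign. Psmd1 then had 0.34 (limma adjusted p = 0.765) and Psmd8 0.24 (adjusted p = 0.842). With lots 2004097 and 2004907 taken as 1 lot they had -0.05 (adjusted p = 0.963) and -0.12 (adjusted p = 0.874). Psmd1, Psmd8 and Psmd4 are the 3 member genes with every tumor below every pool. Another 4 (Psma1, Psmc6, Psmd12 and Psmg4) had every tumor above. These are 7.14% and 9.52% of the 42 genes, beside 17.0% and 18.8% of all genes.

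**Figure D2:**
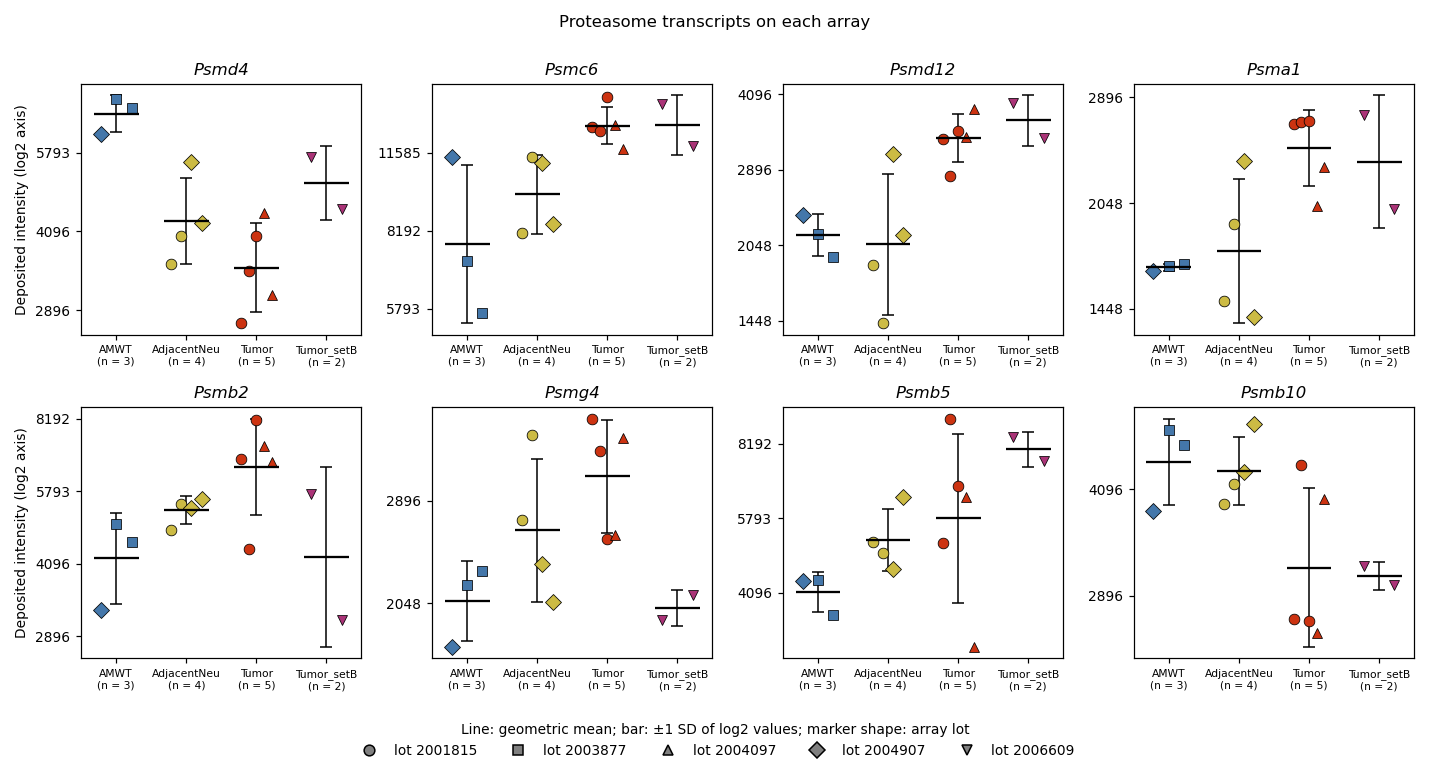
Deposited intensity on each of the 14 arrays, on a log2 axis, for the 6 genes called in Tumor against AMWT and for Psmb5 and Psmb10; the line is the geometric mean of the group, the bar 1 SD of the log2 values, and the marker shape the array lot. Psmd4 is lower in all 5 tumors than in the 3 wild-type pools, and Psmb2 and Psmg4 in Tumor_setB lie lower than in most of the first tumors.

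None of the 3 activator genes was called. Psme1, a subunit of the interferon-induced activator, had a log2 difference of -0.04 ± 0.22, Psme3, a subunit of the nuclear activator, -0.15 ± 0.24, and Psme4, a large single-chain activator, 0.07 ± 0.24. The difference of Psme3 turned to 0.04 without Tumor 24 and to 0.25 without the 5 arrays of lot 2001815. The intervals of all 3 lay within 2-fold. A probe set assigned to 2 genes, Psme2 and a close copy of it, had geometric means of 4826 in AMWT, 4525 in AdjacentNeu, 3952 in Tumor and 3409 in Tumor_setB and was not called in any comparison.

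Among the 7 assembly chaperones, Psmg4 was called. Psmg4 (104756_at), which works with Psmg3 in building the alpha ring, read 1769.8, 2177.7 and 2282.6 in AMWT and 3820.6, 3431.0, 2547.5, 2579.5 and 3579.8 in Tumor. The tumors all exceeded the pools, by a log2 difference of 0.61 ± 0.21 (adjusted p = 0.0393 by limma). It was called in 2 of the 8 fits without 1 array, those without Tumor 26 and without Tumor 50. Its partner Psmg3 had 0.29 ± 0.32, and the other alpha-ring chaperones Psmg1 and Psmg2 had 0.26 ± 0.23 and -0.14 ± 0.26. The chaperones of the cap base, Psmd5, Psmd9 and Psmd10, had 0.14 ± 0.23, -0.05 ± 0.18 and 0.06 ± 0.24. The 2 genes that share only the prefix had differences of -0.72 ± 0.59 for Psmc3ip, a meiotic recombination factor, and -0.53 ± 0.26 for Psme3ip1, which binds Psme3. Neither was called.

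The comparison of AdjacentNeu (n = 4) with AMWT set gland labelled preneoplastic, taken from around a tumor, against wild-type gland. No member gene was called in either direction by limma, while 0.782% of all genes were called higher and 0.469% lower. An unadjusted p under 0.05 was found for 2 of 42 member genes, beside 975 of all 6397 genes. The 2 member genes were Psmd4 and Psmd1, both lower in AdjacentNeu, with Psmd1 named after its values were seen. Psmd4 read 3552.4, 4009.5, 5569.5 and 4247.4 in AdjacentNeu 23, 25, 49 and 51. All 4 lay below the 3 pools, which held for 4.76% of the member genes and 7.55% of all genes. The difference came to -0.68 ± 0.20 (95% interval -1.11 to -0.26), with an adjusted p of 0.107. Within lot 2004907, which holds AdjacentNeu 49 and 51 and AMWT 40, it was -0.37. Since Tumor and AdjacentNeu share the pools as controls, their 2 Psmd4 differences, -0.98 and -0.68, are not independent.

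Psmd1 read 2958.5, 2638.0, 6096.5 and 6009.4 in AdjacentNeu 23, 25, 49 and 51, so the first pair lay far below the pools and the second pair near the lowest of them. Its log2 difference was -0.68 ± 0.31 (limma adjusted p = 0.326), and with lot as a fixed block -0.04 (adjusted p = 0.999). In the other classes, the genes with the smallest p in their class were Psma6 (-0.29 ± 0.22), Psmb2 (0.33 ± 0.24), Psmc2 (-0.27 ± 0.16), Psme3 (0.21 ± 0.24) and Psmg4 (0.34 ± 0.22), with limma adjusted p of 0.460 to 0.723. Psmb10 differed by -0.04 ± 0.21. The median size of the difference was 0.12 over the member genes and 0.30 over all genes, and 38 of 42 intervals lay within 2-fold. All 14 core genes were among these 38.

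Tumors were then set against the adjacent gland. An unadjusted p under 0.05 by limma was found for 5 of 42 member genes, beside 1729 of all 6397 genes. Psmd12 alone was called higher and no member lower, beside 5.75% and 9.29% of all genes. It read 1875.5, 1432.4, 3114.5 and 2152.7 in AdjacentNeu, so Tumor 24, at 2820.0, was below AdjacentNeu 49. The log2 difference was 0.70 ± 0.20 (adjusted p = 0.0246 by limma), and 0.96 within lot 2001815 (3 tumors, 2 adjacent samples). With lot as a fixed block the difference was also 0.96 and was called (limma adjusted p = 0.0239). The call of the main fit was lost without Tumor 26 (adjusted p = 0.0511), Tumor 52 (0.0566), AdjacentNeu 23 (0.0664) or AdjacentNeu 25 (0.0738), and without the 5 arrays of lot 2001815, where the difference was 0.47. Psmc2 had 0.43 ± 0.14 (adjusted p = 0.0571) and Psma1 0.49 ± 0.18 (adjusted p = 0.0936), and both were called without AdjacentNeu 49. Psmb10 had -0.45 ± 0.19 (adjusted p = 0.126) and was called without Tumor 24. Among the other classes the smallest p belonged to Psmb1 (0.33 ± 0.18), Psme3 (-0.36 ± 0.22) and Psmg4 (0.26 ± 0.19). Of the core genes 12 of 14 had a positive difference, beside 55.4% of all genes. The core median was 0.23, against 0.05 for the cap and 0.06 for all genes.

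The second set of tumors (n = 2) was compared with the same wild-type pools. Of the member genes 2 were called higher, Psmb5 and Psmc6, and none lower by limma, beside 11.3% and 12.4% of all genes. An unadjusted p under 0.05 was found for 6 of 42 member genes, beside 2250 of all 6397 genes. Both set B tumors lay above every pool for 12 member genes (28.6%) and below every pool for 4 (9.52%). Of all genes, 29.7% lay above and 28.1% below in this way, so such separation is common with so few arrays. Psmc6 read 14388.0 and 11943.8 in Tumor_setB 80 and 81, both above the pools and near the first tumors. Its log2 difference of 0.76 ± 0.26 (limma adjusted p = 0.0424) stands beside 0.76 ± 0.21 in the first tumors. Both share the wild-type pools as controls, so the 2 differences are not independent. In set B Psmc6 was called in 1 of the 5 fits without 1 array, that without AMWT 40. Psmb5 read 8474.0 and 7550.0, against 4322.7, 4345.2 and 3698.8 in AMWT. Both set B tumors lay above all pools, and the difference was 0.96 ± 0.32 (adjusted p = 0.0397). It was called in 0 of the 5 fits without 1 array, with adjusted p of 0.0688 to 0.191.

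Psmd12 read 3940.4 and 3347.7 in set B, above every pool, with a log2 difference of 0.76 ± 0.27 just short of a call (limma adjusted p = 0.0518). Psmd5, a chaperone of the cap base, read 5049.4 and 4917.6 against 2478.4, 2841.1 and 3298.8 in AMWT (0.80 ± 0.29, adjusted p = 0.0537). Among the first tumors only Tumor 24, at 5014.0, reached such a level of Psmd5. In other classes the smallest p belonged to Psma2 (0.57 ± 0.25, adjusted p = 0.115), Psme4 (0.54 ± 0.29, adjusted p = 0.214) and Psmb10, which read 3193.5 and 2995.9, below every pool (-0.53 ± 0.25, adjusted p = 0.147). Psmd1 read 4604.3 and 3015.3, below every pool, with -0.83 ± 0.38 (adjusted p = 0.129), the largest difference below 0 among the member genes. Without the 5 arrays of lot 2001815 Psmd1 was called lower (adjusted p = 0.0157 by limma). That lot holds no set B or wild-type array, so the differences stayed the same and the estimate of spread changed. In the same fit Psmd5 and Psmd12 were called higher (limma adjusted p = 0.0103 and 0.0242), while Psmc6 was not called (adjusted p = 0.0594). Psmd4, like Psmd1, lay below every pool, at 5693.0 and 4523.1, with -0.44 ± 0.24 (adjusted p = 0.213 in the main fit). Psmb2 and Psmg4, called in the first tumors, differed by 0.01 ± 0.28 and -0.03 ± 0.26 in set B.

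Tumor_setB was tested directly against Tumor. No member gene and no other gene was called in either direction (0.0% and 0.0% of all genes), while 4 of 42 member genes and 617 of 6397 genes had an unadjusted p under 0.05 by limma. Psmg4 read 1934.6 and 2105.6 in set B, below all 5 first tumors, with a log2 difference of -0.64 ± 0.24 (95% interval -1.15 to -0.13, adjusted p = 0.395). Psmd4 was above all 5 first tumors, by 0.54 ± 0.22 (0.07 to 1.01, adjusted p = 0.416), though Tumor_setB 81, at 4523.1, was near Tumor 50, at 4450.2. Such separation was seen for 1 member gene in each direction (2.38% each), beside 6.35% of all genes above and 9.82% below. Psmb2 read 5724.9 and 3121.6 and differed by -0.62 ± 0.26 (-1.17 to -0.07, adjusted p = 0.421). For the other classes the smallest p belonged to Psma4 (0.29 ± 0.20), Psmc1 (0.33 ± 0.25) and Psme4 (0.46 ± 0.27), and Psmb10 differed by -0.04 ± 0.23.

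Core, cap and activator genes were also followed array by array, as the median over a class of the log2 deviation from the mean of the 3 pools. This is a description with no test. The core median was 0.08 to 0.26 in the 5 first tumors and the cap median -0.07 to 0.09, so in each of these tumors the core lay above the cap. The median over all genes was 0.15, 0.16, 0.15, 0.05 and 0.11 in Tumor 22, 24, 26, 50 and 52. The core was at 0.15 in Tumor 22, equal to all genes to 2 decimals, and at 0.08 in Tumor 26, below them. In Tumor_setB 80 the core median was 0.53 and the cap median 0.22, and in Tumor_setB 81 they were -0.07 and 0.02. The activator median ran from -0.73 in Tumor 24 to 0.45 in Tumor 52.

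The adjacent samples split by array lot in the same measure. In AdjacentNeu 23 and 25 (lot 2001815) the core medians were -0.16 and -0.14 and the cap medians -0.19 and -0.26. In AdjacentNeu 49 and 51 (lot 2004907) the core medians were 0.11 and 0.21 and the cap medians 0.13 and 0.08. The 2 pairs did not overlap in either class. The all-gene medians also separated the pairs, but in the opposite direction. They were 0.11 and 0.06 in AdjacentNeu 23 and 25 and 0.02 and -0.02 in AdjacentNeu 49 and 51. Psmd1, given above, was lower in AdjacentNeu 23 and 25, as core and cap were. The skeletal muscle and leukocyte markers also split by pair, while the medians of the white adipocyte, luminal epithelial and endothelial markers overlapped between the pairs. The median of the skeletal muscle markers was -0.85 and -0.77 in AdjacentNeu 23 and 25 and -3.70 and -3.52 in AdjacentNeu 49 and 51, and that of the leukocyte markers was -0.33 and -0.14 against 0.98 and 0.63. Lot, tissue makeup and other differences between the glands cannot be told apart here.

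**Figure D3:**
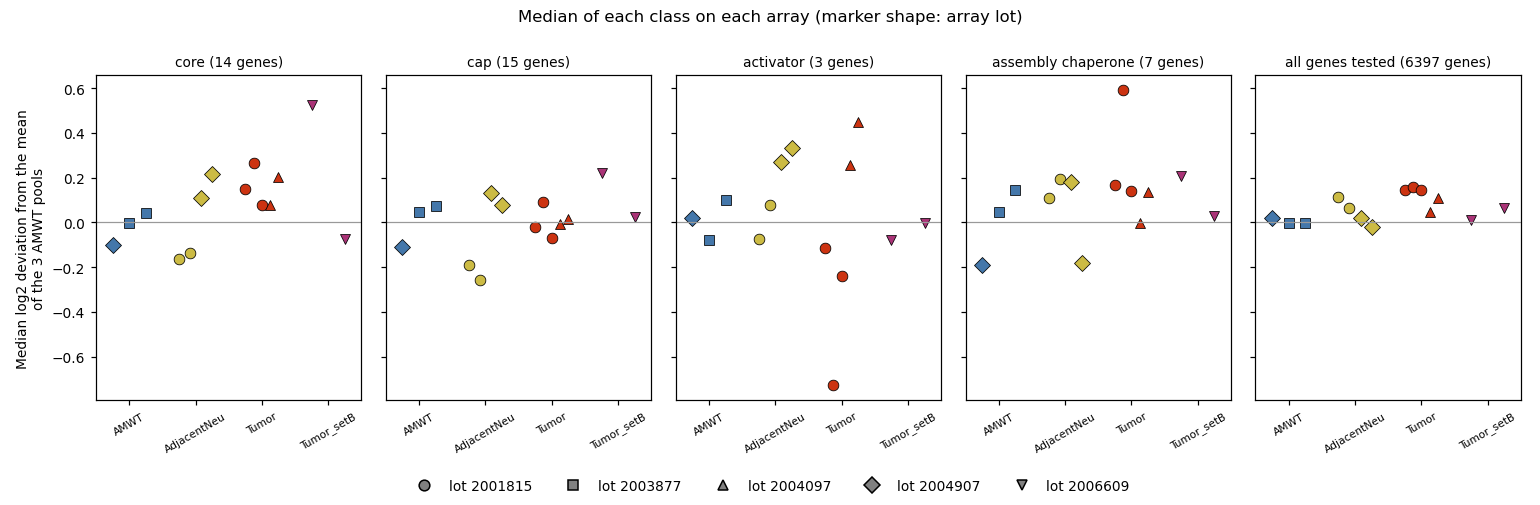
Median log2 deviation from the mean of the 3 wild-type pools over the core, cap, activator and chaperone genes and over all genes tested, 1 point per array, with the array lot as marker shape. The core medians of the 5 first tumors lie between 0.08 and 0.26, and AdjacentNeu 23 and 25 lie below AdjacentNeu 49 and 51 for core and cap.

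The member genes were also compared within lots and with lot in the model. Within lot 2004907, 32 of 42 member genes were higher in AdjacentNeu 49 and 51 than in AMWT 40 (median 0.18), against 46.8% of all genes (median -0.04). This rests on 1 pool, the younger one with the larger CF-1 share. The member median of AMWT 40 was -0.12, against 0.03 and 0.08 in the other pools, and its skeletal muscle median was 0.66. The part of these in the count was not tested. In lot 2001815, 29 of 42 were higher in the 3 tumors than in the 2 adjacent samples (median 0.18), against 49.3% of all genes (median -0.01). With lot as a fixed block, which joins tumors to wild-type gland only through the adjacent samples, the median of Tumor against AMWT was 0.34 over the member genes, with 34 of 42 positive, and -0.02 over all genes. In that fit 0 member genes were called in either direction, and 100 genes in all were called higher and 179 lower. The difference of Psmg4 was 0.35 (limma adjusted p = 0.749) and that of Psma1 0.81 (adjusted p = 0.366). Psmb2 and Psmd12 had 1.01 (adjusted p = 0.306) and 1.10 (adjusted p = 0.145). With lots 2004097 and 2004907 taken as 1 lot AMWT 40 was still the only pool used. The member median was 0.24, with 28 of 42 positive, beside 0.02 over all genes, with 3296 of 6397 positive. Again no member was called for Tumor against AMWT. Psmg4 then had 0.66 (adjusted p = 0.217), Psma1 0.51 (adjusted p = 0.383), Psmb2 1.06 (adjusted p = 0.0717) and Psmd12 0.75 (adjusted p = 0.147). For Tumor against AdjacentNeu, 1 member gene, Psmd12, was called higher with lot as a fixed block, beside 146 of all 6397 genes. With those lots taken as 1 lot, 2 member genes were called higher, beside 428 of all genes. No member was called lower in either fit.

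The member genes varied less between arrays of a group than genes in general. The median SD of log2 values was 0.16 in AMWT, 0.27 in AdjacentNeu and 0.26 in Tumor for the 42 genes, and 0.23, 0.40 and 0.37 for all genes tested. Most member genes read above the array medians over all probe sets, which were 543.65 to 784.1. The comparison was not matched for intensity, and the part of intensity in it was not tested. Among the member genes the SD within Tumor ran from 0.09 for the chaperone Psmd9 to 1.04 for Psmc3ip. Psmc3ip read 117.2, 122.7 and 60.2 in Tumor 22, 24 and 26 and 279.6 and 545.7 in Tumor 50 and 52, so this spread followed array lot as well.

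**Figure D4:**
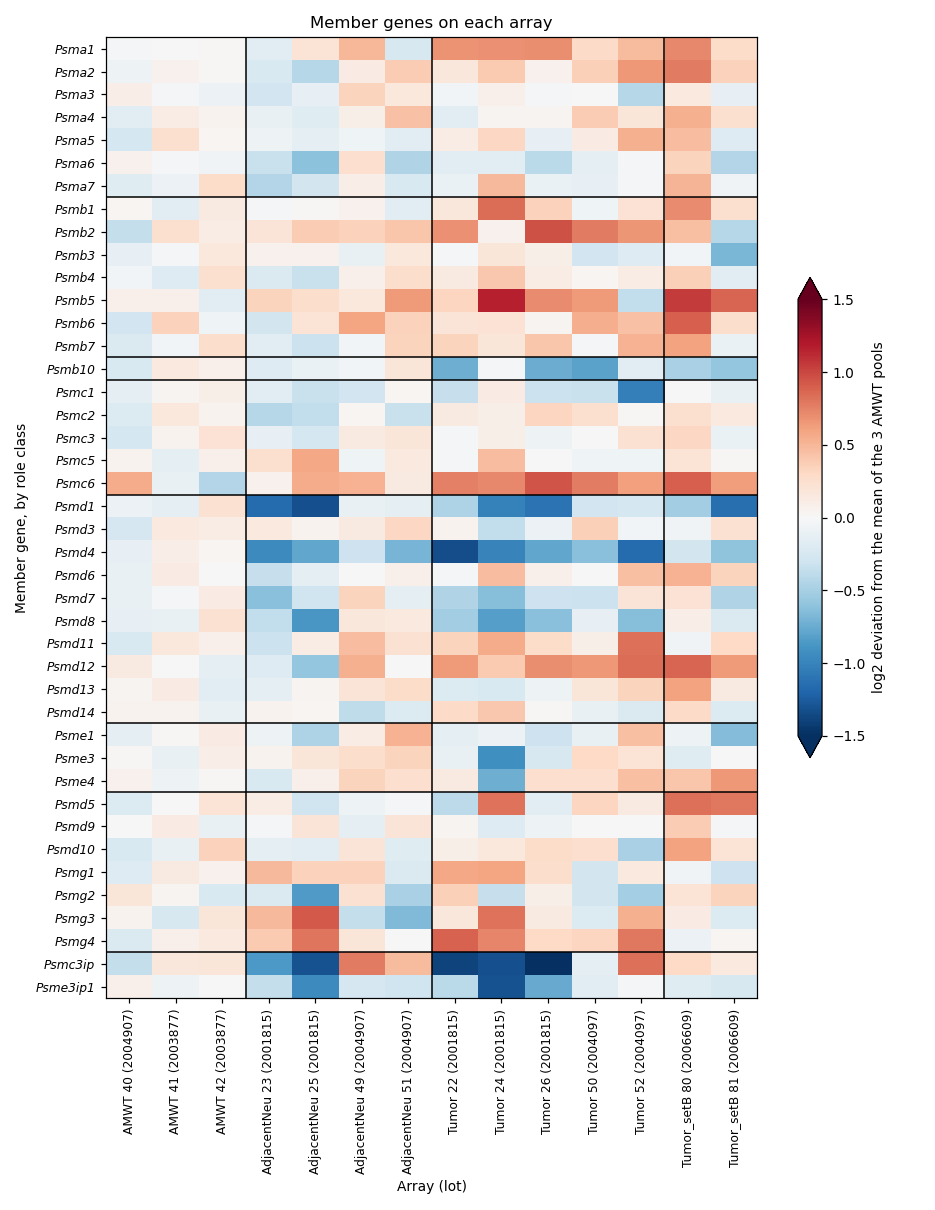
Log2 deviation of each of the 42 tested member genes (rows, by role class) from the mean of the 3 wild-type pools on each of the 14 arrays (columns, with the array lot in brackets); the colour scale ends at -1.5 and 1.5. Psmd4 is blue in all 5 tumors, Psmc6 and Psmd12 are red in all 7, and Psmd1 is blue in AdjacentNeu 23 and 25 but near the wild-type level in AdjacentNeu 49 and 51.

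Several genes had more than 1 tested probe set (6 of 42), and no probe sets of a gene were called in opposite directions. The catalytic gene Psmb5 had a second, dimmer probe set (160559_at), which read 751.1, 467.2 and 854.5 in AMWT and 1222.1, 1353.0, 1648.4, 1358.0 and 1614.5 in Tumor. It was called higher in Tumor, with a log2 difference of 1.10 ± 0.32 (adjusted p = 0.0170 by limma), whereas the brighter 101558_s_at was called in set B and not in the first tumors. In set B 160559_at differed by 0.48 ± 0.40 from AMWT (adjusted p = 0.432).

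The lid gene Psmd11 was called higher in Tumor by both of its dimmer probe sets, by 1.01 ± 0.36 for 160304_r_at (limma adjusted p = 0.0441) and 0.44 ± 0.16 for 160305_at (adjusted p = 0.0454). Its brightest probe set, 94796_at, had a similar difference to the latter, 0.42 ± 0.20, and was not called (adjusted p = 0.141). For the ATPase Psmc3, 93734_i_at was called higher in set B, at 5165.2 and 3840.9 against 2634.1, 2270.0 and 3043.3 in AMWT (0.76, adjusted p = 0.0189). The brighter 93735_f_at overlapped the pools and differed by 0.10 ± 0.22.

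Genes that work with the proteasome outside the prefix rule were read from a list of 20, of which 13 were tested. In Tumor against AMWT 3 were called higher and none lower, with a median of 0.14, beside 15.8% of all genes called higher, 14.7% called lower and a median of 0.13. Uchl5 and Usp14, ubiquitin-removing enzymes that dock on the cap, had log2 differences of 1.03 ± 0.24 (limma adjusted p = 0.00362) and 0.76 ± 0.23 (adjusted p = 0.0210). Ubqln2, which shuttles ubiquitinated proteins to the cap, had 0.91 ± 0.27 (adjusted p = 0.0173). Usp14 was also called in Tumor against AdjacentNeu (0.73 ± 0.21) and in set B against AMWT (1.13 ± 0.29), and Ubqln2 in Tumor against AdjacentNeu (0.94 ± 0.24).

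Ubiquitin and its E1 and E2 enzymes were read from a list of 30, with 18 tested. Against AMWT, Tumor had 3 called higher and 1 lower, AdjacentNeu 1 and 1, and Tumor_setB 4 and 0. Of all genes, 15.8% and 14.7% were called in Tumor, 0.782% and 0.469% in AdjacentNeu, and 11.3% and 12.4% in Tumor_setB. In Tumor against AdjacentNeu 1 gene of the list was called higher and 0 lower, beside 5.75% and 9.29% of all genes. Ube2s, which extends chains for the anaphase-promoting complex, was higher by 1.82 ± 0.31 in Tumor (limma adjusted p = 0.00032), by 1.64 ± 0.32 in AdjacentNeu (adjusted p = 0.0208) and by 2.14 ± 0.38 in set B (adjusted p = 0.000837). Ube2g1 and Ube2e1 were higher in Tumor by 1.14 ± 0.21 and 0.96 ± 0.23, and in set B by 1.32 ± 0.27 and 1.27 ± 0.29. Ube2b, which acts in DNA repair, fell by 0.60 on the log2 scale in Tumor and by 0.87 in AdjacentNeu.

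The interferon list, read because Psmb10 and Psme1 are interferon-induced in other settings, had 12 of 17 genes tested. In Tumor against AMWT 5 were called higher and 2 lower, against the same 15.8% and 14.7% of all genes. The response genes Ifit1 (3.13 ± 0.52), Usp18 (2.71 ± 0.65) and Irf7 (1.87 ± 0.35) were the highest. The regulators Irf8 and Irf1 were lower, by -1.13 ± 0.34 and -0.94 ± 0.26. Beside these, Psmb10 and Psme1 had differences of -0.50 and -0.04, as given above, and neither was called. In Tumor against AdjacentNeu 3 of the 12 interferon genes were called higher and 2 lower, beside 5.75% and 9.29% of all genes. In set B against AMWT 5 were called higher and 1 lower, beside 11.3% and 12.4% of all genes. The genes called in these 2 comparisons are not named here.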

How the data were processed

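RNA of 14 samples was hybridised to 1-colour arrays, 1 sample per array. The table deposited by the authors holds 1 linear intensity per probe set and array. Which software made it was not given in the sources used here. The 2%-trimmed means of the arrays ran from 1500.67 to 1500.9, so the table was taken as already scaled by the authors and no further normalization was applied. The number of arrays limits the precision.

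Before log2 was taken, values below 101.42, which is the 20th percentile over the whole table, were raised to it. After the filter and without 66 control probe sets, 8616 probe sets of 6397 genes entered limma 3.58.1 in R 4.3.3 (lmFit, eBayes with an intensity trend) in 1 model with 4 groups. p-values are two-sided and Benjamini-Hochberg adjusted within each comparison. Errors are standard errors, and group levels are geometric means. Genes are named from the platform annotation and stand by their brightest tested probe set (by mean log2 value). The script was tested on simulated data. Of 2-fold changes put in there, 36% were called for Tumor against AMWT and 16% for Tumor_setB against AMWT. Only 200 of the 8616 probe sets were changed in each simulation, a far smaller share than was called in these 2 comparisons. The adjusted threshold was therefore stricter there, and the shares do not measure how often changes of the member genes would be called. A missing call for a difference under 2-fold still does not show that a gene is unchanged. Tables and figures were made in Python 3.11.15 with pandas 2.3.3 and matplotlib 3.10.9.

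The member genes, role classes, pathway lists and cell type markers were chosen with earlier results of these data known. In each role class and comparison, up to 3 called genes with the largest change were named, or, with no call, the 1 of smallest p. Genes called against the majority of called members were named too, as were genes whose probe sets were called in opposite directions. From each pathway list, up to 3 called genes in each direction were named for Tumor against AMWT. For the other comparisons only some called genes of these lists were named. Others named are examples or were picked after their values were seen. Alternatives were array lot as a fixed or random block, quantile normalization, another floor, no filter, no trend, the mean of probe sets, only the groups compared, and each array left out. A fit without lot 2001815 was added after seeing the data.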

Additional observations from a re-analysis of the deposited data

Results flagged for a closer look

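The activator gene Psme4 read 1381 in Tumor 24, while the other 4 tumors lay between 2504 and 3122, so this tumor stood apart from the rest of its group. On the log2 scale, its gap to the nearest tumor was 0.73 of the whole range. This was 1 of 34 groups examined, over 17 named genes, and chance flags about 1 in 20. Psme3 was lowest in the same tumor too, at 1087.0 against 1747.1 to 2540.4 in the others. The difference of Psme4 between Tumor and wild-type gland was not called with or without this tumor.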

How the results depend on the processing

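No paired analysis was possible because the labels state no pairing and the groups share no replicate number. For Tumor against AMWT, 5 member genes were called higher and 1 lower. With lot as a fixed block the counts were 0 and 0, also with lots 2004097 and 2004907 taken as 1 lot. The count higher was 2 with lot as a random block, 2 with quantile normalization, 2 with no intensity trend and 1 without lot 2001815, and 0 to 3 when 1 array was left out. The count lower was 2 with only the groups compared and 1 to 2 with 1 array left out. For Tumor against AdjacentNeu, the 1 gene called higher became 2 with those lots taken as 1, 2 with quantile normalization, 2 with no filter, 0 with only the groups compared, 0 without lot 2001815 and 0 to 3 with 1 array left out; the count lower was 0 to 1 with 1 array left out. For Tumor_setB against AMWT, the 2 higher became 0 with a random block, 0 with no filter, 0 with no trend and 0 to 1 with 1 array left out, and the count lower rose from 0 to 1 with only the groups compared and to 1 without lot 2001815. Where set B keeps 1 tumor, it is assumed to vary like the other groups, and a fixed lot block could not be fitted for set B. The causes were not tested.

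Of 592 alternative values for 36 differences of named genes, 485 kept their direction and side of the threshold, 80 lost a call, 15 gained one and 12 changed sign, all of these in genes not called. Psmd4 in Tumor against AMWT kept its call in 16 of 18 alternatives (-1.07 to -0.54) and Psmc6 in 13 of 18 (0.17 to 1.04). Psmd12 kept it in 8 of 18, Psmg4 in 6, Psma1 in 5 and Psmb2 in 5. The sign changed for Psme3 in Tumor against AMWT (0.10 with those lots taken as 1, 0.25 without lot 2001815, and -0.27 to 0.039 with 1 array left out) and for Psmc2 in AdjacentNeu against AMWT (0.059 with a fixed block). It also changed for Psmb10 in AdjacentNeu against AMWT (0.30 with a fixed block, 0.24 with those lots taken as 1, 0.066 without lot 2001815, and -0.16 to 0.034 with 1 array left out) and in set B against Tumor (-0.12 to 0.082 with 1 array left out).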
